A study of Mus musculus with 6 samples.

Results

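The mitochondrial genome of the mouse is represented in the deposited table by 29 genes, those listed on chromosome MT, out of 24379 genes in all. They comprise 13 mRNA genes, 2 rRNA genes and 14 tRNA genes. Gene names and RNA classes were taken from GENCODE M21, whose build is GRCm38, and all 29 identifiers matched it in position and strand. GENCODE M21 places 37 genes on MT, and the 8 tRNA genes among them that have no entry in the table were not analysed here. Of the 29 genes, 12 mRNA genes, 7 tRNA genes and both rRNA genes lie on the plus strand, while mt-Nd6 and 7 tRNA genes lie on the minus strand.

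RNA sequencing was done on RAW264.7, a mouse cell line with macrophage features that was derived from an Abelson virus tumour. By the labels, 3 libraries came from cells given high-fructose corn syrup (HFCS), in which glucose and fructose are free sugars, and 3 from cells called WT, the control. A time of 18 h is given for each library, and the HFCS dose is 140 mM in the sample titles but 170 mM in the source names. What the control medium held, and whether it matched the HFCS medium in osmolarity, was not given in the sources used here, nor is any separate culture for each replicate, so the p-values measure a spread between libraries that may be technical.

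The mitochondrial genome is a small circle that encodes membrane subunits of the respiratory chain and of ATP synthase, together with the rRNAs and tRNAs that translate them. Each strand is transcribed by the mitochondrial RNA polymerase into long precursors, in which tRNAs lie between most of the other genes. RNase P and the nuclease Elac2 cut at the tRNA ends and so release the mRNAs and rRNAs, most of which then receive short poly(A) tails. Pieces of mitochondrial DNA have also been copied into nuclear chromosomes during evolution, and sequencing reads from the original and from such a copy can be alike.

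Total counts ran from 13108485 to 15340255 per library, and the floor of 3 counts corresponded to 0.190 to 0.223 CPM, a gene's counts scaled to the size of its library. The first principal component separated HFCS from control and held 70% of the variance. The second, with 11.8%, placed HFCS replicate 3 at -18.9 against 8.89 and 8.23 for the other HFCS libraries, and control replicate 1 at 29.3 against -14.2 and -13.4 for the other control libraries. Control replicate 1 also stood apart in the spread of its counts, with 18.6 and 15.7 for the chi-square per degree of freedom against the other control libraries, which gave 3.99 between them. All 8 macrophage markers passed the filter on low counts, with summed levels of 2145 to 2178 CPM in HFCS and 1843 to 1921 CPM in control libraries, and 6 were higher and 2 lower in HFCS. Summed T and B cell markers were at 0.380 to 0.981 CPM in HFCS and 0.212 to 1.25 CPM in control libraries, and fibroblast and erythroid markers summed to at most 2.01 CPM in HFCS and 1.46 CPM in control libraries. Epithelial markers, of which 2 of 5 were in the table, summed to 0.00 to 0.131 CPM in HFCS and 0.0706 to 0.208 CPM in control libraries. Endothelial markers summed to 1.20 to 1.70 CPM in HFCS and 3.46 to 5.13 CPM in control libraries. Both tested endothelial markers were lower in HFCS, Pecam1 at a log2 fold change of -1.86 (edgeR adjusted p = 0.00115) and Cdh5 at -1.37 (edgeR adjusted p = 0.0118), and their part in the mitochondrial results was not tested. Akr1b3, the aldose reductase gene that is induced by hypertonic medium, was at 195 to 217 CPM in the HFCS and 7134 to 7864 CPM in the control libraries, so each direction below rests on the labels as deposited.

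Several of the results concern small genes whose sequence can be read whole. The 3 tRNA genes that differed between the groups are shown 5′ to 3′ as their transcripts in GENCODE M21, with the anticodon in capitals.
mt-Tp, proline tRNA, MT:15356-15422, minus strand: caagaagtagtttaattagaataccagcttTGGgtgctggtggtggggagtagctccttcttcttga
mt-Ts2, serine tRNA, MT:11613-11671, plus strand: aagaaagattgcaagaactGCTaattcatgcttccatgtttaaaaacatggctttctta
mt-Tl2, leucine tRNA, MT:11671-11741, plus strand: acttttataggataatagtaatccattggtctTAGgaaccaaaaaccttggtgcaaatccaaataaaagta
The last base of mt-Ts2 is the first base of mt-Tl2, and mt-Tl2 ends directly before mt-Nd5.

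A second set of sequences shows where reads of mitochondrial mRNA could also be placed on a nuclear chromosome. The first 61 bases of mt-Nd3 and of its copy Gm28438 on chromosome 1 differ by T3C, counted from the first base of mt-Nd3, and that base is in capitals.
mt-Nd3, MT:9459-9519, plus strand: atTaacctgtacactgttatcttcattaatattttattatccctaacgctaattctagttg
Gm28438, chr1:24613059-24613119, minus strand: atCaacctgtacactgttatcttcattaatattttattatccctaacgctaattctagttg
Over the 345 aligned bases this was the single difference. In mt-Co1 the copied stretch begins at base 1063 of the gene, and capitals mark the bases that lie within it.
mt-Co1, MT:6360-6419, plus strand: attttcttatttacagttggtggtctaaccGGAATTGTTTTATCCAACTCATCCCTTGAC
In mt-Nd4 the copied stretch ends at base 876, and capitals again mark the copied bases.
mt-Nd4, MT:11013-11072, plus strand: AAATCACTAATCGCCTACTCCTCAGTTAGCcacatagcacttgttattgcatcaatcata

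A minority of the mitochondrial genes had lower levels in HFCS than in control libraries. By edgeR's quasi-likelihood test at an adjusted p under 0.05, 24 of the 29 genes passed the filter on low counts, 6 were lower in HFCS, 0 were higher and 18 did not pass the threshold. The 6 were the small-subunit rRNA mt-Rnr1, the mRNAs mt-Co1 and mt-Nd3, and the tRNAs mt-Tp, mt-Ts2 and mt-Tl2. Over all 14360 tested genes, 44.9% passed the threshold, 22.5% as lower and 22.4% as higher in HFCS, so the share of mitochondrial genes called lower was close to the background, and that of genes called either way was below it. The median log2 fold change was -0.42 over the 24 genes, with a range from -1.64 to 0.77, beside 0.00 over all tested genes. Of the 24 estimates, 22 were negative and 2 were positive, beside 7241 negative and 7119 positive over all tested genes. The 24 genes share libraries and long precursors, so their signs are not independent. The CPM of the groups did not overlap for the 6 called genes and overlapped for the other 18, against 54.5% of all tested genes without overlap and 27.2% without overlap and lower in HFCS.

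**Figure D1:**
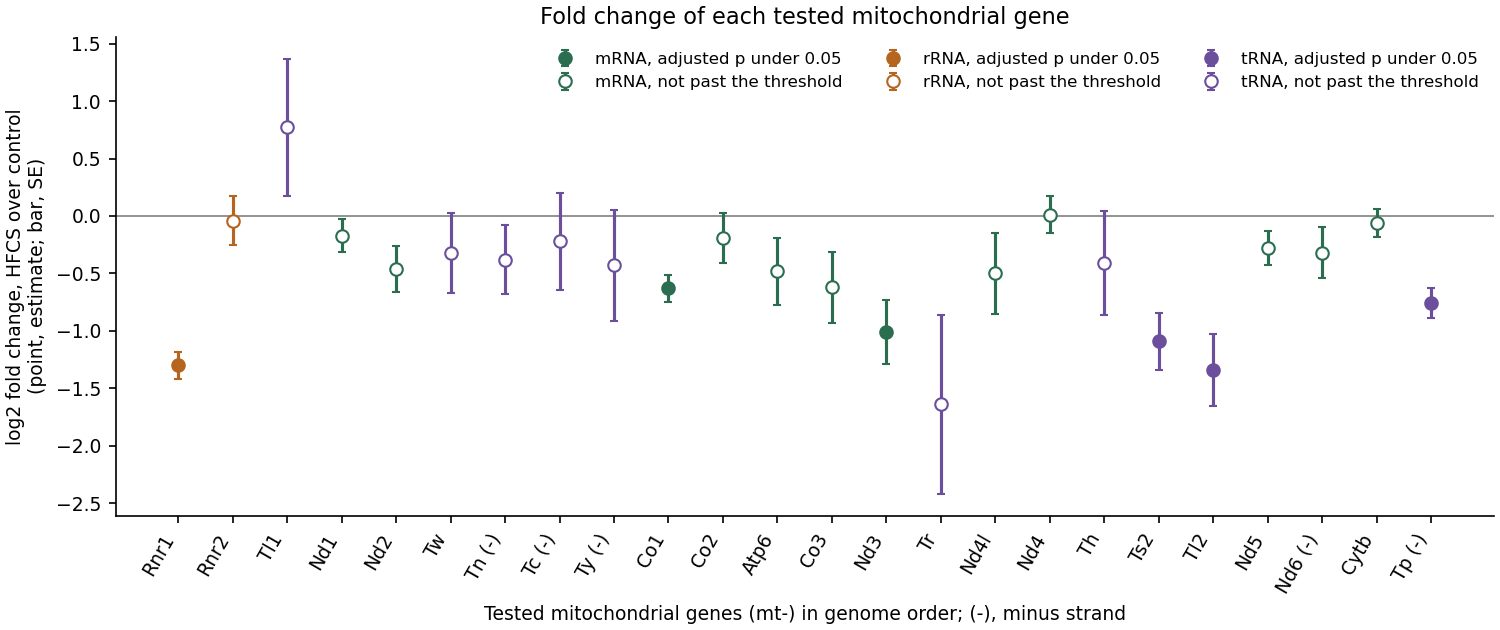
Log2 fold change of HFCS over control for the 24 tested mitochondrial genes, in genome order from left to right, with the standard error as a bar. Colour gives the RNA class and filled points are the 6 genes with an adjusted p under 0.05, which lie between -0.63 and -1.34.

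By class, 2 of 12 tested mRNA genes, 1 of 2 rRNA genes and 3 of 10 tested tRNA genes were lower. By strand, the calls fell on 5 of 19 tested plus-strand genes and on 1 of 5 tested minus-strand genes. With control replicate 1 left out, 14 of 25 tested mitochondrial genes were lower and 0 were higher. In that fit 51.5% of all tested genes passed the threshold in either direction, and the share called lower was not computed. The 8 genes gained were mt-Nd1, mt-Nd2, mt-Nd5, mt-Nd6, mt-Cytb, mt-Atp6, mt-Co3 and mt-Tr. The count of calls therefore depended on that library more than on any other single library.

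The mitochondrial share of all counts was 1.80%, 1.77% and 2.12% in HFCS libraries 1 to 3 and 1.97%, 2.88% and 2.75% in control libraries 1 to 3. The exact Clopper-Pearson 95% intervals were 1.79 to 1.80%, 1.76 to 1.78% and 2.11 to 2.13% in HFCS and 1.96 to 1.97%, 2.87 to 2.89% and 2.74 to 2.75% in control libraries, and they cover counting error only. HFCS replicate 3 lay above control replicate 1, so the groups overlapped. The means were 1.89 ± 0.194% in HFCS and 2.53 ± 0.493% in control libraries (SD, n = 3 each, two-sided exact permutation p = 0.2), and the smallest p that 3 libraries against 3 allow is 0.1. In bulk RNA, fewer cells that hold a transcript and less of it per cell cannot be told apart. Without mt-Co1 the share was 0.688 ± 0.0956% in HFCS and 0.762 ± 0.164% in control libraries (SD, n = 3 each, exact permutation p = 0.6). HFCS replicate 3 had the highest share of its group and control replicate 1 the lowest of its own, and both are the libraries that stood apart on the second principal component.

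**Figure D2:**
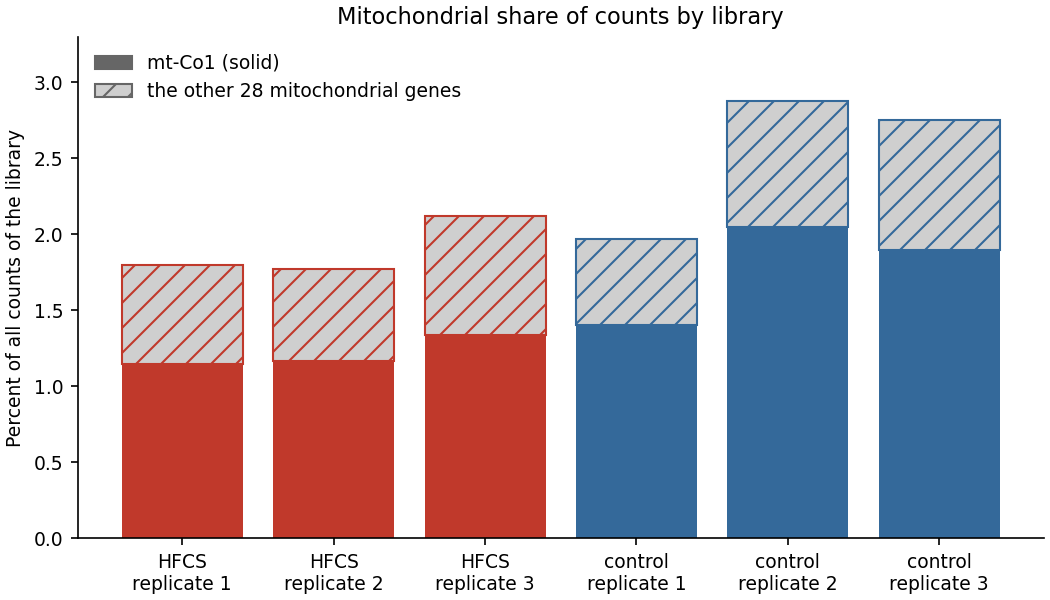
Percent of all counts that fell on the 29 mitochondrial genes in each library, HFCS on the left in red and control on the right in blue. The solid part is mt-Co1 and the hatched part the other 28 genes, which range from 0.610 to 0.794% in HFCS and from 0.573 to 0.869% in control libraries.

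The make-up of the mitochondrial counts was then compared by RNA class. The mRNA genes held 98.3 ± 0.240% of mitochondrial counts in HFCS and 97.8 ± 0.0565% in control libraries. The rRNA genes held 1.38 ± 0.255% in HFCS and 1.77 ± 0.0430% in control libraries, and the tRNA genes 0.350 ± 0.0297% in HFCS and 0.414 ± 0.0135% in control libraries. For each class the libraries of the groups did not overlap (SD, n = 3 each, two-sided exact permutation p = 0.1, the smallest this design allows). mt-Co1 alone held 63.8%, 65.9% and 63.0% of mitochondrial counts in HFCS and 71.3%, 71.2% and 69.0% in control libraries. Its share of mitochondrial counts was thus lower in each HFCS library than in any control library.

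The rRNA genes lie near the start of the plus strand, separated by the tRNA gene mt-Tv, and 1 of them was lower in HFCS. mt-Rnr1, the 12S rRNA of the small ribosomal subunit at MT:70-1024, had 2036, 1891 and 2231 counts in HFCS and 4041, 5164 and 5170 counts in control libraries. That is 151, 124 and 141 CPM in HFCS and 280, 379 and 365 CPM in control libraries, so the highest HFCS library lay below the lowest control library. The log2 fold change was -1.30 ± 0.12 (SE, edgeR adjusted p = 1.2e-05), and it stayed between -1.42 and -1.21 with each library left out. mt-Rnr2, the 16S rRNA of the large subunit at MT:1094-2675, had 1868, 1166 and 2107 counts in HFCS and 1268, 1874 and 1895 counts in control libraries. Its groups overlapped, with a log2 fold change of -0.04 ± 0.21 (edgeR adjusted p = 0.883).

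Counts of mt-Rnr1 over those of mt-Rnr2 were 1.09, 1.62 and 1.06 in HFCS and 3.19, 2.76 and 2.73 in control libraries. No HFCS library reached the lowest control library, and the means were 1.26 ± 0.316 in HFCS and 2.89 ± 0.257 in control libraries (SD, n = 3 each, exact permutation p = 0.1). Set over the counts of mitochondrial mRNA, both rRNAs together gave 0.0169, 0.0117 and 0.0136 in HFCS and 0.0186, 0.0177 and 0.0181 in control libraries (exact permutation p = 0.1, n = 3 each), without overlap. HFCS replicate 2 was the lowest, since its mt-Rnr2 count was the lowest of that group. With mt-Rnr2 alone over mRNA the mean difference of the ratio had the opposite sign, 0.00172 against -0.00406 for both.

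How RNA was selected for the libraries was not given in the sources used here, and rRNA levels depend on it. RNAs that mostly lack a poly(A) tail, a list of 20 histone and small RNA genes of which 10 were in the table, summed to 65.1 to 70.2 CPM in HFCS and 155 to 158 CPM in control libraries. Most of that sum was Hist1h1c, and without it the list summed to 7.66 to 9.73 CPM in HFCS and 14.1 to 19.9 CPM in control libraries. Much of the remainder was Hist1h2bc, at 4.01, 5.23 and 3.17 CPM in HFCS and 12.6, 11.7 and 8.33 CPM in control libraries. The lower sums therefore rest mainly on these histone genes and not on the whole list. Of the list's 5 tested members 2 were lower in HFCS and 0 higher, beside 22.5% and 22.4% of all tested genes. Rn7sk, the only small RNA tested, had a log2 fold change of 0.91 and did not pass. The 2 lower members were Hist1h2bc, a core histone, at -1.40 and Hist1h1c, a linker histone, at 59.4 ± 3.63 CPM in HFCS and 140 ± 2.40 CPM in control libraries (SD, n = 3 each, log2 fold change -1.24 ± 0.07, edgeR adjusted p = 6.4e-07). Nuclear-retained RNAs summed to 3726 to 4886 CPM in HFCS and 8503 to 11464 CPM in control libraries, mostly from Malat1 and Neat1. Of the 4 tested 3 were lower, including Malat1 at a log2 fold change of -1.07, beside 22.5% of all tested genes. The other, Firre, was at 0.07 and did not pass. The part that the lower histone and nuclear-retained RNAs have in the mt-Rnr1 result was not tested.

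Among mRNA genes the level per kilobase ran over several orders of magnitude. mt-Co1, the catalytic subunit of cytochrome c oxidase, was the most abundant at 7663 CPM per kb in HFCS and 11884 CPM per kb in control libraries. mt-Cytb, the cytochrome b of complex III, followed at 2026 CPM per kb in HFCS and 2106 CPM per kb in control libraries. The complex I subunits mt-Nd5, mt-Nd6 and mt-Nd1 were at 939, 873 and 688 CPM per kb in HFCS and 1137, 1091 and 775 CPM per kb in control libraries. mt-Nd4 and mt-Nd2 were at 434 and 407 CPM per kb in HFCS and 432 and 558 CPM per kb in control libraries. mt-Nd5, mt-Nd6 and mt-Nd1 each overlapped with the next in this order over the libraries of a group, as did mt-Nd4 and mt-Nd2. The other 5 tested mRNA genes, mt-Co2, mt-Atp6, mt-Co3, mt-Nd4l and mt-Nd3, were at 4.07 to 86.4 CPM per kb in HFCS and 7.86 to 98.3 CPM per kb in control libraries.

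**Figure D3:**
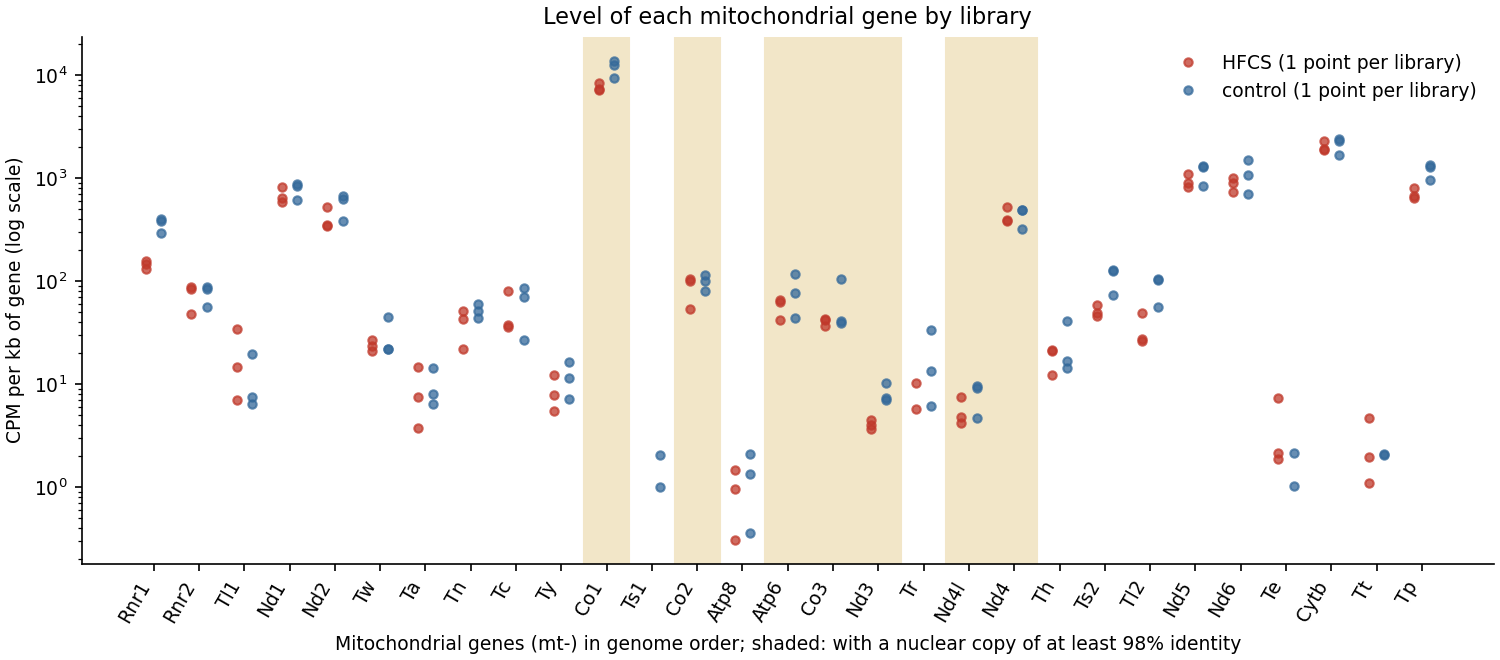
CPM per kilobase of gene on a log scale for the 29 mitochondrial genes in genome order, with 1 point per library, HFCS in red on the left and control in blue on the right of each pair, and values of 0 not drawn. Shaded genes have a near-identical copy among annotated nuclear transcripts. The 5 that are copied whole lie between 4.07 and 86.4 in HFCS and between 7.86 and 98.3 in control libraries as group means.

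Of the cytochrome c oxidase genes, mt-Co1 at MT:5328-6872 had 150112, 174448 and 204687 counts in HFCS and 207970, 289294 and 275211 counts in control libraries. In scaled values these were 11151, 11410 and 12958 CPM in HFCS and 14425, 21233 and 19426 CPM in control libraries, without overlap. The log2 fold change was -0.63 ± 0.12 (SE, edgeR adjusted p = 0.00174), within -0.78 to -0.51 with each library left out. mt-Co2 and mt-Co3, the other core subunits, overlapped between the groups, at 59.1 ± 19.6 and 31.5 ± 2.67 CPM in HFCS and 67.2 ± 12.1 and 48.5 ± 29.6 CPM in control libraries (SD, n = 3 each). Neither passed the threshold, with log2 fold changes of -0.19 (edgeR adjusted p = 0.511) and -0.62 (edgeR adjusted p = 0.132). The spread of mt-Co3 came from control replicate 2, at 1127 counts against 466 and 433 in the other control libraries.

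Of the complex I genes, mt-Nd3 at MT:9459-9806 was the single one past the threshold and is the weakest of the 6 calls. It had 19, 24 and 20 counts in HFCS and 35, 49 and 36 counts in control libraries, which did not overlap. The log2 fold change was -1.01 ± 0.28 (SE, edgeR adjusted p = 0.0134), and without control replicate 2 the adjusted p was 0.0594. The other 6 complex I genes overlapped between the groups. mt-Nd2, at 422 ± 104 CPM in HFCS and 579 ± 157 CPM in control libraries (SD, n = 3 each), had a log2 fold change of -0.46 ± 0.20 (edgeR adjusted p = 0.0874). mt-Nd4 had 7257, 8108 and 11430 counts in HFCS and 6395, 9102 and 9553 counts in control libraries, at a log2 fold change of 0.01 ± 0.16 (edgeR adjusted p = 0.98). mt-Nd1, mt-Nd4l, mt-Nd5 and mt-Nd6 lay between -0.17 and -0.50, with adjusted p from 0.17 to 0.359. All complex I genes together made 21.2%, 19.6% and 22.6% of mitochondrial mRNA counts in HFCS and 16.8%, 17.1% and 19.5% in control libraries, without overlap (exact permutation p = 0.1, n = 3 each). That total is mostly mt-Co1, and of mitochondrial mRNA without mt-Co1 they made 60.7%, 59.2% and 62.9% in HFCS and 61.9%, 62.9% and 66.1% in control libraries, which overlapped (exact permutation p = 0.2, n = 3 each).

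mt-Cytb, the only complex III gene of the mitochondrial genome, had 29644, 32987 and 40965 counts in HFCS and 27430, 36942 and 37026 counts in control libraries. The groups overlapped, with a log2 fold change of -0.06 ± 0.12 (SE, edgeR adjusted p = 0.741). Of the ATP synthase genes, mt-Atp6 was at 38.7 ± 8.59 CPM in HFCS and 53.9 ± 25.1 CPM in control libraries (SD, n = 3 each, log2 fold change -0.48, edgeR adjusted p = 0.198). mt-Atp8 had 4, 3 and 1 counts in HFCS and 4, 1 and 6 counts in control libraries and was not tested. These genes share 43 bases at MT:7927-7969, shown here with the start codon of mt-Atp6 in capitals, since a read that lies in both cannot be assigned to 1 of them.
mt-Atp8 and mt-Atp6, plus strand: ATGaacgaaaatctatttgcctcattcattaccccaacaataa

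The tRNA genes were counted unevenly, and whether their reads came from cut tRNAs or from precursors was not tested. mt-Tp held 76.0%, 74.6% and 68.6% of all mitochondrial tRNA counts in HFCS and 74.1%, 71.9% and 76.8% in control libraries. It had 576, 683 and 849 counts in HFCS and 924, 1169 and 1270 counts in control libraries, and each HFCS library lay below each control library also in CPM. The log2 fold change of mt-Tp was -0.76 ± 0.13 (SE, edgeR adjusted p = 0.00089). The other 9 tested tRNA genes had 0 to 84 counts per library in HFCS and 6 to 105 in control libraries.

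The adjoining genes mt-Ts2 and mt-Tl2 were both lower in HFCS. mt-Ts2 had 39, 41 and 54 counts in HFCS and 62, 103 and 105 counts in control libraries, at a log2 fold change of -1.09 ± 0.25 (SE, edgeR adjusted p = 0.00454). mt-Tl2 had 25, 30 and 55 counts in HFCS and 58, 99 and 105 counts in control libraries, at a log2 fold change of -1.34 ± 0.31 (SE, edgeR adjusted p = 0.00492). For both, no HFCS library reached the CPM of a control library. A read across the junction of these genes, or into mt-Nd5 beside them, could be assigned to more than 1 gene, so their values are not independent. Their neighbours did not pass the threshold, with mt-Nd4 at 0.01, mt-Th at -0.41 and mt-Nd5 at -0.28.

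The remaining 7 tested tRNA genes overlapped between the groups. The lowest estimate was that of mt-Tr, the arginine tRNA, with 0, 6 and 11 counts in HFCS and 6, 31 and 13 counts in control libraries (log2 fold change -1.64 ± 0.78, edgeR adjusted p = 0.112). The highest was that of mt-Tl1, the other leucine tRNA, with 15, 8 and 41 counts in HFCS and 7, 20 and 8 counts in control libraries (0.77 ± 0.60, edgeR adjusted p = 0.327). mt-Tw, mt-Tn, mt-Tc, mt-Ty and mt-Th lay between -0.22 and -0.43. mt-Ta, mt-Ts1, mt-Te and mt-Tt were not tested, and with mt-Atp8 they had 0 to 16 counts per library in HFCS and 0 to 14 in control libraries. mt-Ts1 had 0 counts in each HFCS library and 1, 0 and 2 counts in control libraries, all below the floor of 3 counts.

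The minus strand was represented mainly by mt-Nd6, a complex I subunit. mt-Nd6 had 6219, 5781 and 8208 counts in HFCS and 5193, 7634 and 11014 counts in control libraries, at a log2 fold change of -0.32 ± 0.22 (SE, edgeR adjusted p = 0.259). Over the counts of its plus-strand neighbour mt-Nd5 the ratio was 0.280, 0.252 and 0.261 in HFCS and 0.236, 0.242 and 0.326 in control libraries, which overlapped (exact permutation p = 1, n = 3 each). All minus-strand genes together held 2.75 ± 0.233% of mitochondrial counts in HFCS and 2.48 ± 0.541% in control libraries (SD, n = 3 each, exact permutation p = 0.4). Whether the authors counted reads by strand was not given in the sources used here. Without it, RNA from the opposite strand of a gene, such as the precursor across mt-Nd6 or mt-Tp, cannot be told apart from the gene's own.

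Ratios within a library do not depend on how much nuclear RNA was sequenced beside the mitochondrial RNA. mt-Cytb was used as the denominator, being the single mRNA gene without an overlap with another gene or a near-identical copy among annotated nuclear transcripts. Of the 23 other tested genes, 8 had ratios that did not overlap between the groups, a share close to the 34.9% of all tested genes when set over mt-Cytb. All 8 were lower in HFCS. They were the 6 called genes, mt-Nd2 and mt-Nd5.

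mt-Co1 over mt-Cytb was 5.06, 5.29 and 5.0 in HFCS and 7.58, 7.83 and 7.43 in control libraries, with means of 5.12 ± 0.153 in HFCS and 7.62 ± 0.201 in control libraries. mt-Rnr1 over mt-Cytb averaged 0.0602 ± 0.00752 in HFCS and 0.142 ± 0.00440 in control libraries. mt-Tp over mt-Cytb averaged 0.0203 ± 0.000742 in HFCS and 0.0332 ± 0.00139 in control libraries. For each of these 3 ratios the gap between the group means was larger than the whole range within either group (SD, n = 3 each, exact permutation p = 0.1). For mt-Nd5 over mt-Cytb the groups lay closer, at 0.748, 0.697 and 0.767 in HFCS and 0.803, 0.853 and 0.912 in control libraries. mt-Rnr2 over mt-Cytb, at 0.0499 ± 0.0139 in HFCS and 0.0494 ± 0.00274 in control libraries, and mt-Nd4 over mt-Cytb, at 0.257 ± 0.0195 in HFCS and 0.246 ± 0.0124 in control libraries, overlapped.

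**Figure D4:**
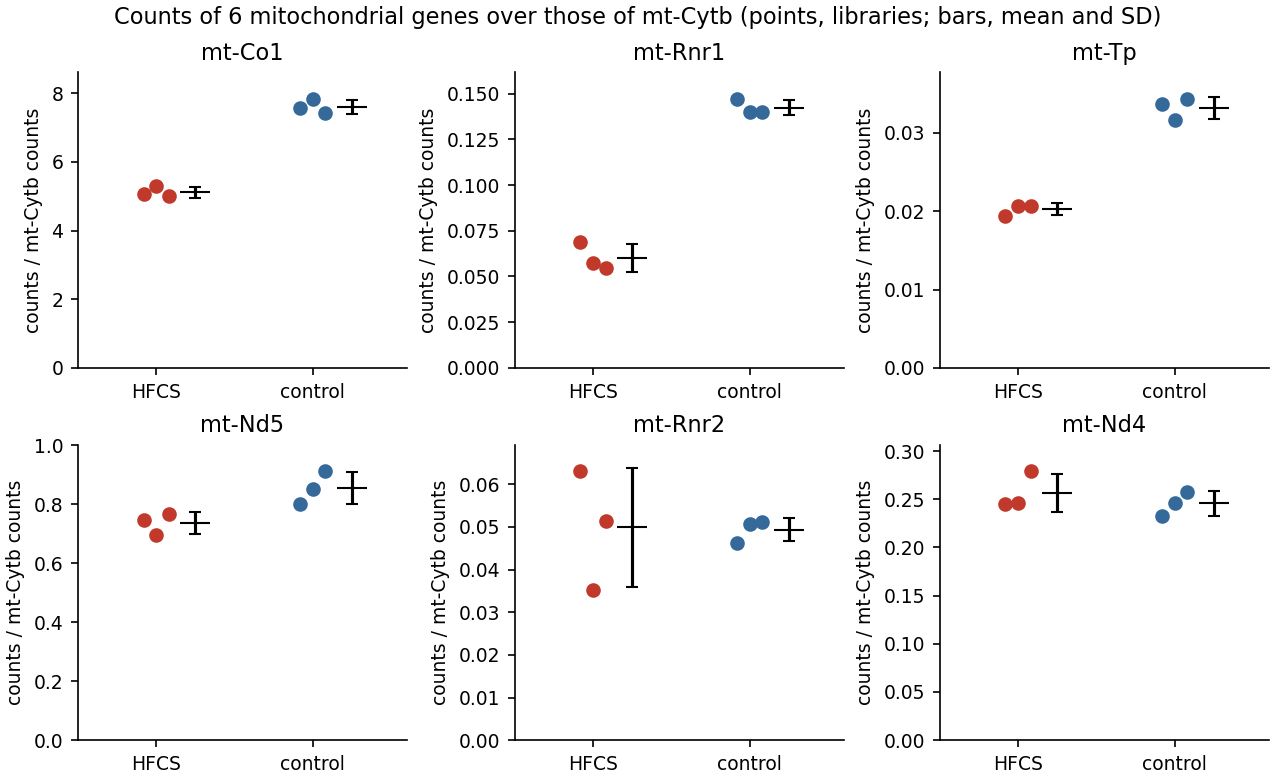
Counts of 6 mitochondrial genes divided by those of mt-Cytb in the same library, with HFCS in red on the left and control in blue on the right of each panel, and the mean and SD in black beside the points. The groups are apart for mt-Co1, mt-Rnr1, mt-Tp and mt-Nd5 and overlap for mt-Rnr2 and mt-Nd4, whose means are 0.0499 and 0.257 in HFCS and 0.0494 and 0.246 in control libraries.

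With library sizes set to the total of mitochondrial mRNA, the median of all tested genes moved to 0.46, and 3 mitochondrial genes passed the threshold (39.4% of all tested genes did). They were mt-Rnr1 at -0.81 and mt-Tl2 at -0.86, both lower in HFCS, and mt-Nd4 at 0.49, which was higher in HFCS and lay near the moved median. mt-Co1 at -0.14, mt-Nd3 at -0.52, mt-Ts2 at -0.59 and mt-Tp at -0.28 did not pass in that fit. Since mt-Co1 is most of that total, its own fold change against it was bound to be small. With mt-Co1 left out of that total, the median of all genes was 0.14 and 2 genes passed, mt-Rnr1 at -1.12 (edgeR adjusted p = 0.00061) and mt-Tl2 at -1.17 (edgeR adjusted p = 0.0123), beside 15.0% of all tested genes. There mt-Co1 was at -0.45 (edgeR adjusted p = 0.214) and mt-Nd3 at -0.83 (edgeR adjusted p = 0.172). mt-Ts2 was at -0.90 (edgeR adjusted p = 0.0502) and mt-Tp at -0.59 (edgeR adjusted p = 0.0916). The mitochondrial genes are also poor in G and C, at 31.9 to 41.1% in the mRNA genes against a median of 49.9% over tested genes, and 7.77% of tested genes lay below the highest of them. Once trends on GC content and length were removed per library, mt-Nd3 at -0.33, mt-Ts2 at -0.21 and mt-Tl2 at -0.41 did not pass the threshold, whereas mt-Rnr1 at -0.85, mt-Co1 at -0.40 and mt-Tp at -0.39 (edgeR adjusted p = 0.0208) stayed lower with smaller fold changes. In that fit mt-Nd4 at 0.43 (edgeR adjusted p = 0.00467) and mt-Cytb at 0.23 (edgeR adjusted p = 0.0458) were higher in HFCS, and 51.3% of all tested genes passed.

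Near-identical nuclear copies bear at least on the 7 mitochondrial genes for which one was found. A search of the mitochondrial transcripts against nuclear transcripts of GENCODE M21, with at least 98% identity over at least 100 bases, found 7 pseudogenes. All lie side by side on the minus strand of chromosome 1, at chr1:24611535-24616197. Nuclear sequence outside annotated transcripts was not searched. A copy of mt-Atp8, mt-Ts1 or mt-Tr, which lie between copied genes, could therefore have been missed. The 5 mRNA genes mt-Co2, mt-Atp6, mt-Co3, mt-Nd3 and mt-Nd4l are copied in all but at most 3 bases, with 100% identity except for mt-Nd3 (99.71%, the change T3C). mt-Nd4 is copied over 63.6% and mt-Co1 over 31.3% of its length. Of all 100-base windows, 97.6 to 99.9% in the 5 whole copies, 60.8% in mt-Nd4, 30.8% in mt-Co1 and 3.19% in mt-Nd2 occurred letter for letter in a nuclear transcript.

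The 5 mRNA genes copied whole were those with the lowest levels apart from mt-Atp8, at no more than 86.4 CPM per kb in HFCS and 98.3 CPM per kb in control libraries. The 7 other mRNA genes, again without mt-Atp8, were at 407 to 7663 CPM per kb in HFCS and 432 to 11884 CPM per kb in control libraries. How the authors treated reads that fit more than 1 place was not given in the sources used here, so these levels and those of the copies are uncertain. Gm28661, the copy of mt-Co2, had 911, 949 and 491 counts in HFCS and 1101, 698 and 736 counts in control libraries, and mt-Co2 itself had 1.06 to 1.18 times its copy's counts in HFCS and 1.03 to 1.33 times in control libraries. Gm28438 had 153, 247 and 249 counts in HFCS and 421, 372 and 359 counts in control libraries, many more than mt-Nd3. The 2 differ by 1 base in GRCm38, and whether mt-Nd3 of these cells carries the GRCm38 base was not tested. The low counts of mt-Nd3 may therefore not be its level.

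**Figure D5:**
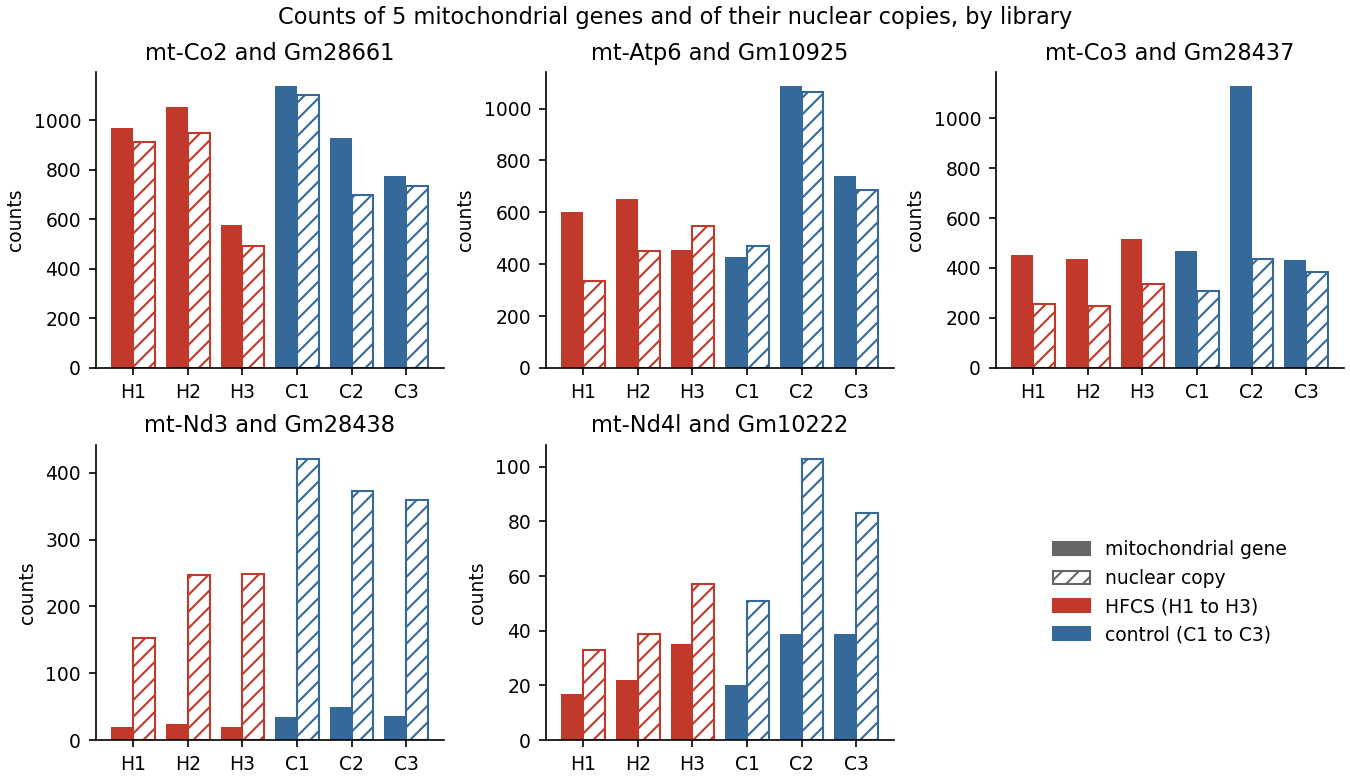
Counts per library of the 5 mitochondrial mRNA genes that are copied whole (solid bars) and of their nuclear copies on chromosome 1 (hatched bars), with HFCS libraries H1 to H3 in red and control libraries C1 to C3 in blue. The gene mt-Co2 has 1.03 to 1.33 times the counts of its copy, and the copy of mt-Nd3 has 7.58 to 12.5 times those of the gene.

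Of the 7 copies, 5 were lower in HFCS, beside 22.5% of all tested genes. Their counts may hold reads of the mitochondrial genes, so these calls are not separate nuclear results. Gm10925, the copy of mt-Atp6, was at a log2 fold change of -0.83 ± 0.26 (SE, edgeR adjusted p = 0.0213), Gm28437, the copy of mt-Co3, at -0.51 ± 0.16 (edgeR adjusted p = 0.0202), and Gm28438 at -0.91 ± 0.14 (edgeR adjusted p = 0.00044). Gm10222, the copy of mt-Nd4l, was at -0.97 and Gm29216, the partial copy of mt-Co1, at -0.48. Gm28661 at -0.16 and Gm28439, the partial copy of mt-Nd4, at 0.03 did not pass. When each mitochondrial gene was summed with its copy, mt-Nd3 rested on 172, 271 and 269 counts in HFCS and 456, 421 and 395 counts in control libraries and had a log2 fold change of -0.92 (edgeR adjusted p = 0.000271). mt-Nd4l passed in the sum, at -0.81 (edgeR adjusted p = 0.0337), which made 7 mitochondrial genes, alone or summed with a copy, lower. Most counts of that sum were those of Gm10222, with 129 in HFCS and 237 in control libraries. mt-Nd4l itself had 74 in HFCS and 98 in control libraries and did not pass alone. In the fit with summed counts 45.0% of all tested genes were called in either direction. mt-Co1 was unaffected to 2 decimals, at -0.63, since its copy held 522 counts in HFCS and 688 in control libraries against 529247 and 772475 for the gene.

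Nuclear genes that express and maintain the mitochondrial genome were described with 7 lists of 108 genes, chosen with earlier results of these data known. Of 106 tested genes 26 were lower in HFCS, 26 were higher and 54 did not pass, with a median log2 fold change of 0.05, close to the shares and the median of all tested genes. With libraries scaled by their size alone the split was 15 lower and 32 higher. That scaling also moved the median of all tested genes to 0.08. The shares of all tested genes called lower and higher under it were not computed. Among 10 tested transcription genes 1 rose and 1 fell, with a median of 0.11. Polrmt, the mitochondrial RNA polymerase, was at 63.8 ± 2.25 CPM in HFCS and 49.2 ± 3.06 CPM in control libraries (SD, n = 3 each, log2 fold change 0.38, edgeR adjusted p = 0.00292). Tfb2m, which helps it to open the promoter, was at 24.3 ± 1.12 CPM in HFCS and 34.0 ± 5.76 CPM in control libraries (log2 fold change -0.48, edgeR adjusted p = 0.00995). Mterf1b, a termination factor gene, was at 0.41 (edgeR adjusted p = 0.0595).

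Genes that cut mitochondrial precursors and finish tRNA ends moved both ways, with 6 lower, 5 higher and 8 not passing of 19, and a median of -0.13. The protein subunits of mitochondrial RNase P did not share a direction. Trmt10c, its methyltransferase subunit, was at 36.3 ± 2.07 CPM in HFCS and 25.3 ± 0.565 CPM in control libraries (SD, n = 3 each, log2 fold change 0.52, edgeR adjusted p = 0.00092). Hsd17b10, its dehydrogenase subunit, was at 34.0 ± 3.26 CPM in HFCS and 66.2 ± 10.8 CPM in control libraries (log2 fold change -0.96, edgeR adjusted p = 0.00012). Prorp, its nuclease subunit, named after its values were seen, was at -0.46 (edgeR adjusted p = 0.019), and its adjusted p rose to 0.0852 with 1 library left out. Alkbh1, a demethylase that acts on tRNA, was at 70.7 ± 2.67 CPM in HFCS and 108 ± 6.71 CPM in control libraries (log2 fold change -0.61, edgeR adjusted p = 8.8e-05).

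Of 15 tested genes of mRNA stability and polyadenylation 5 were lower and 4 higher (median -0.10). Lrpprc, which binds and stabilises mitochondrial mRNA, was at 140 ± 8.29 CPM in HFCS and 200 ± 22.7 CPM in control libraries (SD, n = 3 each, log2 fold change -0.51, edgeR adjusted p = 0.00089). Supv3l1, the helicase of the mitochondrial RNA degradosome, fell by 0.46 on the log2 scale, and Fastk, which is needed for mt-Nd6 mRNA, rose by 0.48. Of 20 genes of rRNA modification and ribosome assembly 4 were lower and 8 higher (median 0.15). The GTPase gene Noa1 was at -0.63, the helicase gene Ddx28 at 0.84 and the 16S rRNA methyltransferase gene Mrm2 at 0.95.

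Of 17 genes of mitochondrial DNA replication and maintenance 3 were lower and 2 higher (median 0.07). Ssbp1, the single-stranded DNA binding protein, was at 36.1 ± 1.22 CPM in HFCS and 52.5 ± 4.95 CPM in control libraries (SD, n = 3 each, log2 fold change -0.54, edgeR adjusted p = 0.00078). The nucleoside kinase genes Dguok and Tk2, which supply nucleotides for it, were at -0.35 and 0.39. Of 10 tested regulators of biogenesis 1 was lower and 5 were higher (median 0.28), with Yy1 at 0.46, Myc at 0.84 and Gabpb1 at 0.39, all transcription factor genes. Of 16 genes of import and mass 6 were lower and 1 was higher (median -0.06), with the prohibitin Phb at -0.71, the chaperone Hspd1 at -0.42 and the protease Clpp at 0.39. Each value in these sentences is a log2 fold change with an edgeR adjusted p under 0.05. Of the list genes named here, Alkbh1, Ddx28, Fastk, Gabpb1, Hspd1, Mrm2, Phb, Prorp, Supv3l1, Tfb2m and Trmt10c overlap another gene of the table, and reads of such pairs cannot be told apart with the strand setting not given. The overlapping genes of Ddx28, Fastk, Hspd1, Mrm2 and Prorp had 429 to 12013 counts over the 6 libraries, and those of the others at most 234.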

How the data were processed

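RNA of 6 libraries of RAW264.7 cells was sequenced after Trizol extraction, per the labels' protocols. The authors deposited raw counts of reads for each gene, made with HISAT2 2.0.5 and featureCounts 1.5.0-p3 on mm10, per the submitters' processing notes, which also name CASAVA. The annotation, the strand setting and the handling of reads with several places were not given in the sources used here.

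The 29 mitochondrial genes and all lists were chosen with earlier results of these data known. All genes were fitted together with edgeR 4.0.16 (R 4.3.3), using filterByExpr with a minimum count of 10, TMM scaling, glmQLFit and glmQLFTest without covariates, and p-values were adjusted by Benjamini-Hochberg over 14360 genes. Each SE was derived from the fold change and its F statistic. CPM were computed on TMM-scaled library sizes. Depth was 13108485 to 15340255 counts per library, and intervals and floors cover counting error only. The common biological coefficient of variation was 0.0984. The fit was tested on simulated data. Shares and ratios were compared by exact permutation over libraries.

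Nuclear copies were searched with BLAST 2.17.0+ among transcripts of GENCODE M21, which held 24369 of the 24379 identifiers. Named genes are all members, from each list the 3 with the smallest adjusted p, and the copies. Alternatives were other scalings, filters and thresholds, DESeq2 1.42.0, limma-voom 3.58.1, removal of a GC and length trend, a replicate block, other numerators and denominators, and each library left out. Scaling without mt-Co1, the share without mt-Co1 and the sums with nuclear copies were chosen after seeing the data.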

Additional observations from a re-analysis of the deposited data

How the results depend on the processing

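With the edgeR fit described, 6 mitochondrial genes passed the threshold, all lower in HFCS. That number was 5 to 7, all lower, with other scalings by nuclear genes, filters, DESeq2, limma-voom, a threshold of 0.01 and sums with nuclear copies. With GC and length correction it was 5, of which 3 were lower and 2 higher in HFCS. It was 3 relative to mitochondrial mRNA and 2 relative to that total without mt-Co1, a scaling chosen after seeing the data. With each library left out it ranged from 5 to 14, the highest without control replicate 1. The number of nuclear genes of the 7 lists past the threshold, 52, was 45 to 59 in other fits and 34 to 64 with each library left out (34 without HFCS replicate 2 and 64 without control replicate 1). The difference in mitochondrial share, -0.636 percentage points, ranged from -0.918 to -0.462 with each library left out, and that in the ratio of rRNA to mRNA, -0.00406, from -0.00548 to -0.00289. With mt-Rnr2 alone that difference was 0.00172.

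Whether replicate numbers pair the libraries could not be settled, since all correlations were weak. Deviations from the group means of same-numbered libraries correlated at 0.167, -0.064 and 0.191. HFCS replicates 1 and 3 correlated best with the control library of their own number, and HFCS replicate 2 with control replicate 1 (0.163). With the replicate number as a block 9 mitochondrial genes passed, the 6 and mt-Nd2, mt-Tr and mt-Nd5. The share of all tested genes that passed with this block was not computed, so the 9 cannot be set against a background.

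Single log2 fold changes that changed sign were, relative to mitochondrial mRNA, mt-Rnr2 (0.45), mt-Nd1 (0.31), mt-Nd2 (0.04), mt-Tw (0.19), mt-Tn (0.07), mt-Tc (0.19), mt-Ty (0.05), mt-Co2 (0.27), mt-Atp6 (0.09), mt-Nd5 (0.22), mt-Nd6 (0.19) and mt-Cytb (0.43), by a scaling that moved all genes by 0.46. Without mt-Co1 in that total they were mt-Rnr2 (0.13) and mt-Cytb (0.12). With the GC and length trend removed they were mt-Rnr2 (0.39), mt-Nd1 (0.19), mt-Tw (0.17), mt-Tn (0.36), mt-Tc (0.41), mt-Ty (0.30), mt-Co2 (0.15), mt-Atp6 (0.01), mt-Th (0.44), mt-Nd5 (0.05), mt-Nd6 (0.27) and mt-Cytb (0.23). By library size alone they were mt-Rnr2 (0.04) and mt-Cytb (0.02), and by upper-quartile scaling mt-Nd4 (-0.03). With each library left out the ranges that crossed 0 were mt-Rnr2 -0.22 to 0.20, mt-Tl1 -0.03 to 1.43, mt-Tw -0.50 to 0.10, mt-Tc -0.70 to 0.11, mt-Co2 -0.34 to 0.08, mt-Co3 -0.87 to 0.00, mt-Nd4 -0.16 to 0.11, mt-Th -0.67 to 0.23 and mt-Cytb -0.20 to 0.04. None of these genes was among the 6 calls, and the cause was not tested. Under every alternative named here mt-Rnr1 was lower in HFCS and past the threshold. Counts of 0 to 105 per library limit the precision of the tRNA genes other than mt-Tp.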
